A study of Homo sapiens with 21 samples.

Results

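Of the 14 peak lists and 21 samples of the series, 6 peak lists of wild-type RUNX1 in Jurkat cells were compared by the kind of mutant RUNX1 that shared the cell. They were chosen by label, as the anti-TY1 lists of the mutant clones. No measured value entered that rule, but earlier results of these data were known when it was set. Jurkat is an established human T-cell acute lymphoblastic leukaemia line, and the mutant lists came from knock-in single clones of it, left untreated. In the mutant clones an HA tag marked the mutant RUNX1 protein and a TY1 tag the wild-type RUNX1 protein, so a TY1 list shows where wild-type RUNX1 sat while a mutant partner was present. The 4 lists of the truncating side came from 2 clones with R232fs, a frameshift, and 2 clones with Y287X, a premature stop codon. The 2 lists of the missense side came from 2 clones with G365R, which exchanges a glycine for an arginine. The WT clone, where both tags marked wild-type protein, gave 1 TY1 list for reference. Fixation took 15 min and its stop solution 5 min, followed by sonication and immunoprecipitation, per the labels' protocols. Peak lists carry no gene names, so the T-cell identity of the clones could not be checked against marker genes. By the clone names of the lists, replicates are separate clones. Each mutant genotype rests on 2 of them, so a property of a single clone and one of a genotype are hard to separate.

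RUNX1 is a transcription factor that binds DNA through its Runt domain, and its partner CBFB strengthens that binding. It is needed for blood stem cells to form and for T-cell development, and it is recurrently mutated in leukaemias. A truncated RUNX1 that keeps the Runt domain but loses the C-terminal transactivation part can still occupy DNA, and such proteins can compete with the wild-type protein for sites or for CBFB. A missense change in the C-terminal part leaves the length of the protein as it was.

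The lists held 40112 and 59140 peaks for R232fs, 49749 and 81561 for Y287X, and 57378 and 61793 for G365R on chromosomes 1 to 22 and X. The WT TY1 list had 59452. The truncating and G365R lists also differed in kind. The highest summit pileup, the number of fragments stacked at a summit, among peaks of fold enrichment 5 or more was 2451, 4258, 2904 and 4127 in the truncating lists. It was 406 and 447 in the G365R lists and 385 in the WT TY1 list. The HA lists of the same clones divided in the same way, at 2367 to 3152 for the truncating clones and 454 to 472 for the G365R and WT clones. The sources used here do not say what made the lists differ in this way. The partner allele and the kind of list therefore cannot be told apart in any difference between the sides, and resemblance of G365R to WT lists is also resemblance within 1 kind. The name given to the WT clone carries the residue number of G365R, and what that stands for is not given either.

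Wild-type RUNX1 lists of the G365R clones were the most alike, and the R232fs pair shared no more regions than some pairs across the sides did. Each list was cut to its 40112 strongest peaks by p-value, the length of the shortest list, and 100 bp were set on either side of every summit. Overlapping windows were merged, which gave 75257 regions. The Jaccard index (shared regions divided by all regions of a pair of lists) was 0.659 for the G365R pair, 0.589 for the Y287X pair and 0.448 for the R232fs pair. Between an R232fs and a Y287X list it ran from 0.493 to 0.623. The 8 pairs that joined a truncating and a G365R list ran from 0.401 to 0.557, so the R232fs pair lay inside that range. The mean was 0.557 within sides and 0.492 between them, a difference of 0.0658 (exact permutation of the side labels, 1-sided, p = 0.133, 15 arrangements). The call is not past 0.05, and 15 arrangements allow no p below 0.0667. With the strongest peaks chosen by fold instead of p-value the difference was 0.110 (exact permutation p = 0.0667). The WT TY1 list reached 0.674 and 0.678 with the G365R lists. With the truncating lists it reached 0.533 and 0.426 (R232fs) and 0.529 and 0.469 (Y287X), all below the G365R values.

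Among the strongest sites by p-value the index between sides was lower than in the lists as a whole, a description with no test. The p-value depends on pileup, in which the kinds of list differed. The partner allele and the kind of list therefore cannot be told apart here, and a ranking by fold at these lengths is not given. Among the first 1000 peaks of each list, 2182 regions were formed and 171 (7.84%) were in all 6 lists. The G365R pair then had an index of 0.653, the Y287X pair 0.610 and the R232fs pair 0.418, while the pairs between sides fell between 0.124 and 0.359. With the first 10000 peaks the range between sides was 0.324 to 0.603 and the R232fs pair stood at 0.493, inside it. At the equal length of 40112 peaks 17659 regions (23.5%) were in all 6 lists. In the plot of the index against list length the top of the grey range rises to 0.620 at 20000 peaks and falls to 0.557 at 40112.

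**Figure D1:**
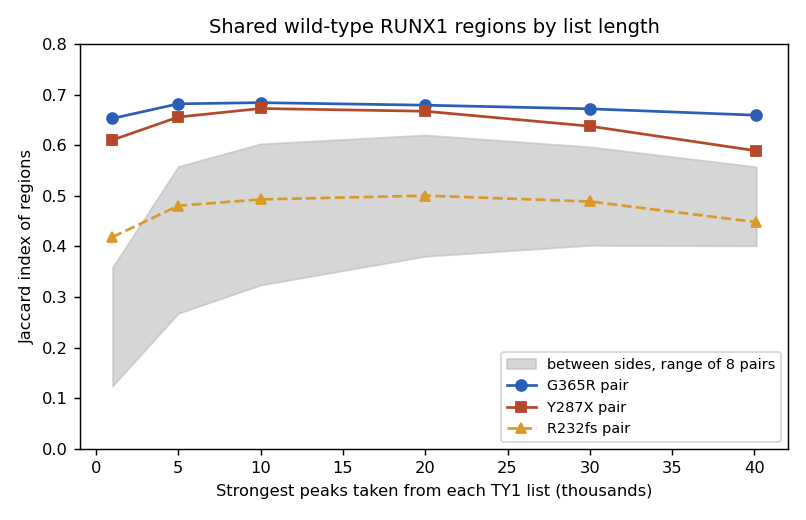
Jaccard index of regions (y axis) against the number of strongest peaks by p-value taken from each TY1 list (x axis), for the 3 same-genotype pairs and, in grey, the range of the 8 pairs between the truncating and the G365R side. With 1000 peaks all 3 same-genotype pairs lie above the grey range, whose top is 0.359, and with 40112 peaks the R232fs pair (0.448) lies inside it.

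Regions in all 6 lists or in a single list outnumbered those in both lists of a genotype and in no other. No expected share was computed for these patterns. Of the 75257 regions 23139 (30.7%) were in a single list. Within each list 5.74% to 12.9% of its regions were in no other. Summits of both R232fs lists and of no other fell in 451 regions (0.599%), and those of both Y287X lists and no other in 772 (1.03%). Summits of both G365R lists and of no truncating list fell in 3210 (4.27%), and summits of all 4 truncating lists and of no G365R list in 1359 (1.81%). A count that asks for 4 lists is harder to meet than one that asks for 2, so these counts are not a comparison of the sides.

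A larger share of the G365R than of the truncating sites was also occupied in the WT clone. The WT TY1 list had a summit in 68.9% and 59.3% of the regions of the R232fs lists, 68.7% and 63.4% of those of the Y287X lists, and 79.96% and 80.2% of those of the G365R lists. The 4 truncating values lay below both G365R values, with 65.0% ± 4.6 (SD, n = 4) against 80.1% ± 0.18 (SD, n = 2). In the other direction, the mutant protein of the same clone had an HA summit in 61.3%, 68.6%, 65.8% and 70.1% of the truncating TY1 regions and in 58.3% and 56.9% of those of G365R. Close neighbours were rarer on the truncating side, where 3.20%, 2.82%, 3.66% and 2.65% of summits lay within 1000 bp of another, compared with 5.44% and 6.07% in G365R. These 3 measures did not overlap between the sides, each with an exact permutation p of 0.0667 (2-sided), the smallest possible, and 0.222 after Benjamini-Hochberg adjustment over the 10 measures computed. None is past 0.05. The median distance between neighbouring summits did not overlap either, and was shorter on the truncating side (23987, 22664, 24260 and 21635 bp against 24776 and 25226 bp, exact permutation p = 0.133). At this cut both differences in spacing stand side by side, with fewer close neighbours and a shorter median. In lists cut by fold the median distance was instead longer on the truncating side, by 65 bp (exact permutation p = 0.933). In full lists it was longer by 1704.5 bp (exact permutation p = 0.667), with overlapping values. In full lists the WT shares did overlap, since the first R232fs list had 79.5% and the G365R lists 76.6% and 72.9% (exact permutation p = 0.333). The HA difference of 8.87 percentage points was 1.72 in lists cut by fold (exact permutation p = 0.667) and 29.97 in full lists (exact permutation p = 0.0667). Full HA lists held 51892 to 86433 peaks on the truncating side and 30609 and 30563 in G365R. The part of list length in the larger difference was not tested.

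Over whole lists of equal length, size and median strength of the peaks overlapped between the sides. Covered length at equal list length was 22.9, 27.7, 24.0 and 31.7 Mb in the truncating lists and 24.3 and 23.2 Mb in G365R (exact permutation p = 0.533). Median width was 485, 595, 519 and 686 bp against 517 and 496 bp (exact permutation p = 0.467). Median fold enrichment, the authors' ratio of pileup to local background, was 4.75, 5.30, 4.39 and 5.66 against 5.03 and 4.96 (exact permutation p = 0.867). At the 17659 regions in all 6 lists the median fold did not overlap, a description with no test. It was 5.40, 7.50, 5.32 and 7.80 there in the truncating lists and 5.06 and 4.48 in G365R. In full lists median width was 485, 476, 466 and 454 bp against 428 and 405 bp, which did not overlap (exact permutation p = 0.0667). Peak number gave an exact permutation p of 0.933.

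Sites of wild-type RUNX1 restricted to 1 side were a small part of the regions. A region was counted as truncating-only when all 4 truncating lists had a summit there and no peak of either full G365R list overlapped it, and as G365R-only in the mirror case. There were 409 truncating-only regions (0.543% of all regions) and 2006 G365R-only regions (2.67%). These counts carry no test, and they ask for 4 lists on one side and for 2 on the other. When 2 clones were set against 2, R232fs alone gave 1008 regions of its own and 3415 of G365R, and Y287X alone gave 1655 and 3503. Without the first or the second G365R list the truncating-only count became 1141 or 757, and without the first R232fs list 1060. The G365R-only count became 4671 or 3146 without the first or the second G365R list and 3165 without the first R232fs list. Among the first 20000 peaks of each list the counts were 17 and 300.

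Most restricted sites lay more than 1000 bp from the nearest peak of the other side. Overlap was excluded by definition and no background distance is given, so these distances are a description. The nearest peak of the other side lay at a median of 8252 bp from truncating-only regions and of 8332.5 bp from G365R-only regions. It was within 1000 bp for 36 (8.80%) and 244 (12.2%) of them. The median over regions of the fold in the lists of their own side was 5.33 for truncating-only and 6.11 for G365R-only regions. At the regions common to all 6 lists the same median was 6.55 in the truncating and 4.82 in the G365R lists. A fold of 5 was reached by 56.0% of truncating-only regions and by 65.3% of common regions in the truncating lists, but by 78.4% of G365R-only regions and 47.9% of common regions in the G365R lists. At a fold of 10 restricted regions were below common ones on both sides, with 3.91% (16 regions) against 27.7% and 8.47% (170 regions) against 19.4%. Local background was low at restricted sites, with list medians of 5.59 to 7.62 fragments at truncating-only regions and of 3.62 and 4.54 at G365R-only regions. At common regions it was 22.2 to 29.6.

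The other lists of the series had peaks at the restricted sites in opposite ways. A WT TY1 peak overlapped 120 truncating-only regions (29.3%) and 1771 G365R-only regions (88.3%). The mutant proteins of the truncating clones had HA peaks at 77.3% to 96.6% of the truncating-only regions, and 276 (67.5%) were in all 4 of those HA lists. The G365R HA lists each covered 2.69% of them, and 388 (94.9%) were in neither. At G365R-only regions the G365R HA lists had peaks at 45.5% and 50.8%, and 672 (33.5%) were in both. The truncating HA lists had peaks at 22.98%, 8.03%, 10.97% and 2.94% of them, and 1351 (67.3%) were in none. In neither WT list were 282 truncating-only (68.9%) and 212 G365R-only regions (10.6%). At common regions the truncating HA lists had peaks at 98.0% to 99.4% and the G365R HA lists at 79.8% and 72.7%. The truncating HA lists were also longer (51892 to 86433 peaks against 30609 and 30563), and the part of list length in these shares was not tested. The HA lists are from the same clones as the TY1 lists and divide by kind of list in the same way.

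**Figure D2:**
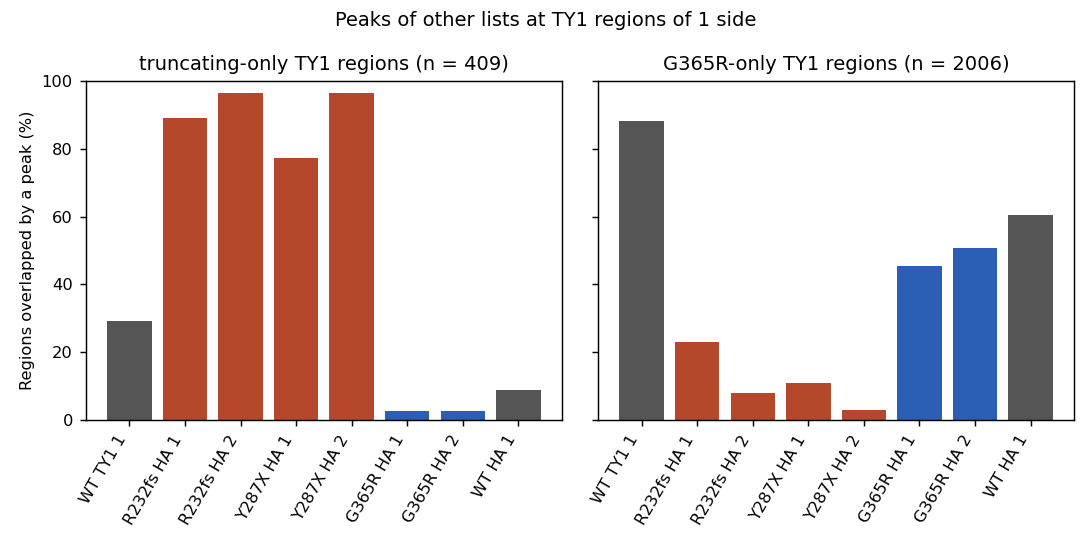
Percentage of the 409 truncating-only (left) and 2006 G365R-only (right) wild-type RUNX1 regions that are overlapped by a peak of each other list (bars, 1 per list, red for truncating clones, blue for G365R, grey for WT). Truncating-only regions are covered mainly by truncating HA lists (77.3% to 96.6%), and G365R-only regions mainly by the WT TY1 list (88.3%).

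The truncating-only regions with the highest fold had no peak in the WT TY1 list or a weak one, of fold 4.03 or less (hg19 positions). At chr9:42849662-42849878 the fold was 6.79 and 32.9 in R232fs and 10.1 and 34.8 in Y287X, and 4.03 in the WT TY1 list. The second clone of each genotype was the higher. At chr2:124671037-124671309 it was 20.1 and 19.2 in R232fs, 18.7 and 31.8 in Y287X and 2.85 in WT, and the nearest G365R peak lay 217583 bp away. The region chr1:91852835-91853066 had folds of 15.2 and 21.2 and of 12.1 and 22.2 with no WT TY1 peak, and its HA folds were higher still in all 4 clones (44.2 and 31.7 in R232fs, 15.6 and 33.7 in Y287X). At chr19:27883089-27883373 the truncating values spread from 5.73 to 58.2. The remaining named regions, chr3:195454587-195454832 and chr11:30448350-30448580, had median folds of 13.3 and 13.1 and no WT TY1 peak. None of the 6 had a peak in a G365R HA list.

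The strongest G365R-only regions had higher folds than these, and 4 of the 6 were also in the WT TY1 list, with folds of 15.1 to 29.8. At chr4:55612487-55612721 the TY1 fold was 33.5 and 31.3 in G365R and 27.1 in WT, and the G365R mutant protein had HA folds of 19.6 and 26.1 there. Of the truncating HA lists only the first R232fs list had a peak, of fold 4.88. At chr1:115893859-115894096 the fold was 27.2 and 25.7 in G365R and 29.8 in WT. The regions chr22:26683821-26684066 (29.9 and 27.8, WT 19.3) and chr2:196078929-196079133 (25.5 and 26.9, WT 15.1) followed. The other 2 were on chromosome 21 and differed from these by having no WT TY1 peak. They were chr21:36252860-36253071 (33.9 and 31.1) and chr21:36171541-36171791 (34.5 and 28.3).

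These 2 regions belonged to a group of G365R-only regions on chromosome 21, the chromosome that carries RUNX1. The stretch from 36121541 to 36303071, 50000 bp beyond the named regions on either side and chosen after their values were seen, held 6 G365R-only regions, 4 regions common to all 6 lists and 0 truncating-only regions. Of the 6 G365R-only regions, 5 shared a pattern: the named ones and chr21:36164557-36164763 (25.0 and 17.2), chr21:36206662-36206881 (6.89 and 7.404) and chr21:36231712-36231914 (15.1 and 13.3). Each had a peak in both G365R HA lists and in the WT HA list, and none in the WT TY1 list or any truncating HA list. The 4 common regions of the stretch, such as chr21:36280765-36281012, had summits of every clone, at that region with folds of 12.5 and 5.73 (R232fs), 12.9 and 13.99 (Y287X) and 15.1 and 15.4 (G365R). With no hg19 annotation at hand, the place of these regions relative to the exons and promoters of RUNX1 was not determined. The clones carry engineered RUNX1 alleles, and whether the peaks come from the endogenous locus was not tested.

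The share of restricted sites varied along the genome. G365R-only regions made up 10.2% of G365R-only and common regions together, from 2.39% on chromosome 19 (22 beside 899 common) to 26.8% on chromosome 13 (153 beside 417). Chromosomes 4 and 5 had 16.9% and 16.2%. The share on chromosome 13 was 32.7% against the R232fs lists alone and 29.1% against the Y287X lists alone, the highest of all chromosomes both times. Of the 153 regions on chromosome 13, 145 had a WT TY1 peak. Truncating-only regions made up 2.26% of truncating-only and common regions and 0.714% on chromosome 13. In windows of 5 Mb with at least 20 such regions, of which there were 382, the median G365R-only share was 7.77%, and 32 windows had none. The highest share was 44.7% (17 beside 21 common) in chr9:85000001-90000000. These shares carry no test, and copy number of the clones was not measured.

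**Figure D3:**
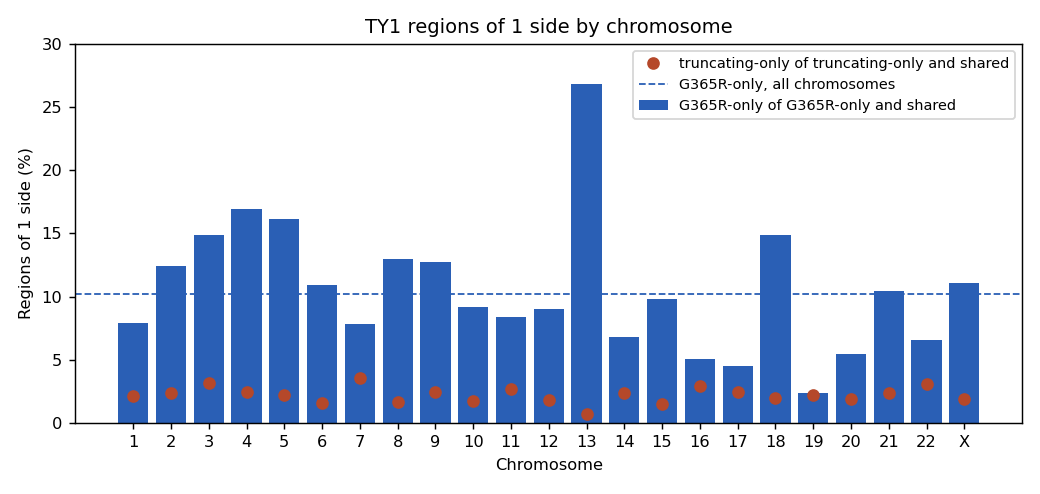
Share of wild-type RUNX1 regions restricted to the G365R side among these and the common regions (blue bars, y axis in percent) by chromosome (x axis), with the share over all chromosomes as a dashed line and the corresponding truncating-only share as red points. Chromosome 13 has the highest G365R-only share (26.8%) and the lowest truncating-only share (0.714%).

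At sites occupied in all 6 lists, summits were close by the way regions were built, from overlapping windows of 100 bp on each side, so their distances are a description. The median distance between the summits of a pair of lists was 15 to 22 bp for the 7 pairs within a side and 21 to 28 bp for the 8 pairs between sides. Between sides 71.1% to 82.1% of summits lay within 50 bp.

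The order of strength at these 17659 sites differed between the sides at few sites past the test. Ranks of fold within a list were converted to normal scores, so a change of 1 is 1 SD of that list. Across sites scores correlated with r = 0.920 between the G365R lists, 0.886 between the Y287X lists and 0.806 between the R232fs lists, and with r = 0.720 to 0.889 between sides. Sites share a library and are not replicates. The second R232fs list had the lowest values (0.720 to 0.836 with every other list). By limma, with Benjamini-Hochberg adjustment over all sites and a threshold of 0.05, 24 sites (0.136%) were higher and 14 (0.0793%) lower on the truncating side. At an unadjusted p under 0.05 there were 3190. The SD of the change over all sites was 0.460, and 546 sites (3.09%) changed by more than 1 either way. In all 38 called sites the 4 truncating scores lay apart from both G365R scores, in the direction of the call. The calls were made on these same scores, so this is no further evidence for them. Over all sites 17.6% were apart with the truncating lists above and 14.6% with them below. With 2 lists against 2 in the same fit, limma called 17 sites between R232fs and G365R, 9 between Y287X and G365R, and 0 between R232fs and Y287X (777 at an unadjusted p under 0.05). These comparisons share lists.

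The number called depended on the quantity ranked and on single lists. Ranks of −log10 p in place of fold gave 2041 called sites (1007 higher, 1034 lower) and ranks of summit pileup 1932 (865 and 1067), and 35 and 24 of the 38 sites were called again. Without the first R232fs list limma called 2072 sites, without the second 9, without either Y287X list 12 and 10, and without either G365R list 5 and 7. At all 38 the scores did not overlap between the sides, so leaving out any single list could not change their direction. With ranks of summit pileup 28 kept it.

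A site on chromosome 2 had the lowest p-value of all. At chr2:11093894-11094212 the fold was 169 and 199 in R232fs and 209 and 369 in Y287X, at or above the 99.97th percentile of each list. It was 12.7 and 11.9 in G365R, at percentiles of 86.15 and 85.65, and 8.52 in WT. The score change was 2.73 ± 0.14 (SE; limma adjusted p = 6.48e-06). The HA lists divided in the same way, with folds of 174 and 179 (R232fs), 213 and 253 (Y287X) and 15.2 and 17.5 (G365R). Here the local background itself was lower in the truncating lists (4.86 to 8.34 fragments) than in G365R (23.9 and 28.6).

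The other named higher sites were weak or moderate in the G365R lists. At chr13:113527388-113527624 the R232fs lists had folds of 49.2 and 40.7, the Y287X lists 21.5 and 35.2 and the G365R lists 3.41 and 2.84, with 2.34 in WT (change 2.54 ± 0.22, limma adjusted p = 0.000718). With ranks of summit pileup in place of fold the change there was -0.19. The largest change, 2.92 ± 0.37 (limma adjusted p = 0.0120), was at chr21:47604394-47604625. That site was weak by fold in every list. Its folds were 2.33, 4.41, 2.97 and 3.90 in the truncating lists, at percentiles of 10.5 to 15.8, and 1.53 in each G365R list. It was the last of all common sites in both G365R lists, and with ranks of summit pileup its change was 0.19 and not called (limma adjusted p = 0.222). The sites chr15:102501667-102501994, chr12:74136-74391 and chr1:145208961-145209194 changed by 2.43 ± 0.28, 2.40 ± 0.28 and 2.31 ± 0.32 (limma adjusted p = 0.00787, 0.00842 and 0.0186). With ranks of summit pileup these were 1.07, 0.82 and 0.47, and that of chr2:11093894-11094212 was 0.96, all still called. Their truncating percentiles ran from 53.8 to 84.6 and their G365R percentiles from 0.903 to 12.3. These 3 and the chromosome 21 site had local backgrounds of 213 to 351 fragments in the truncating lists, beside a median of 23.4 over all sites.

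The named sites lower on the truncating side stood, with 1 exception, on a background near the lowest of each list and were among the strongest in G365R and WT. At chr3:18933179-18933444 the R232fs lists had folds of 11.5 and 11.3, the Y287X lists 43.1 and 15.3 and the G365R lists 57.7 and 62.7, with 53.6 in WT (change -2.13 ± 0.33, limma adjusted p = 0.0285). The first Y287X clone stood close to the G365R clones there. At chr1:208362612-208362830 the truncating folds were 6.79 and 7.06 (R232fs) and 5.19 and 5.94 (Y287X), below 27.0 and 26.4 in G365R and 28.9 in WT (change -1.97 ± 0.24, limma adjusted p = 0.00933). The HA folds were 4.89 to 6.51 in the truncating clones and 15.7 and 16.2 in G365R. At chr13:101959185-101959457 the truncating TY1 folds were 11.8 and 9.48 (R232fs) and 11.5 and 10.6 (Y287X), below 38.5 and 37.4 in G365R and 37.1 in WT (change -1.73 ± 0.24). The sites chr7:131929865-131930150 and chrX:76224478-76224743 changed by -1.59 ± 0.24 and -1.54 ± 0.25, and both were above the 95th percentile in G365R and WT. The remaining named site, chr6:27870609-27871099, was of another kind. Its folds were 1.60, 2.54, 2.38 and 3.31 in the truncating lists and 4.28 and 4.19 in G365R (change -1.97 ± 0.30), over a background of 33.0 to 43.1 fragments on the truncating side and 17.9 and 20.7 in G365R. With ranks of summit pileup its change was 0.17.

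**Figure D4:**
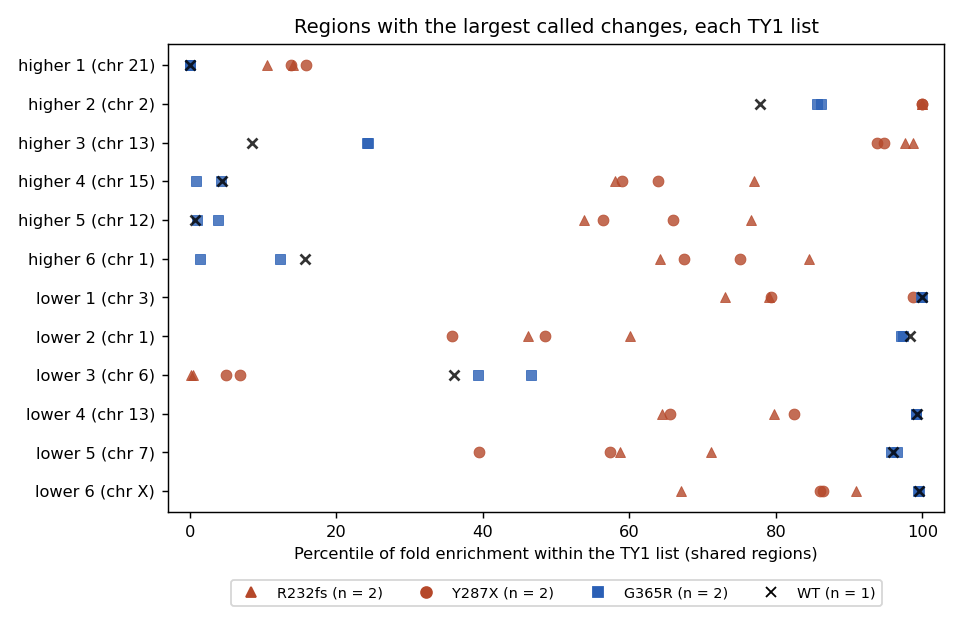
Percentile of the authors' fold within each TY1 list among the common sites (x axis, 100 is the strongest) at the 6 highest and 6 lowest called sites (rows, in order of change), for R232fs (triangles), Y287X (circles), G365R (squares) and WT (crosses), 1 mark per list. Rows were chosen so that the 4 truncating marks lie on the opposite side of a gap from the G365R marks. In every row WT falls on the G365R side.

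The WT clone and the mutant proteins took the same sides at most of the called sites. The WT TY1 score was nearer to the G365R than to the truncating mean at all 23 higher sites with a WT summit and at all 14 lower sites, compared with 65.1% of all common sites. Among sites with a summit in all 6 HA lists, the HA scores of the truncating clones all lay above those of the G365R clones at 19 of 24 higher sites (22.2% of all such sites), and all below at 11 of 13 lower sites (18.9%). At 1 of the 13 they lay apart the other way. The WT and G365R lists are of 1 kind, and HA and TY1 lists come from the same clones.

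The 3 strongest common sites by mean percentile were not called. They were picked by their mean over the same 6 lists, which left little room for a difference. Their values are therefore a description. At chr11:36706501-36706764, the first by mean percentile, the R232fs lists had folds of 201 and 142, the Y287X lists 125 and 219 and the G365R lists 78.4 and 58.2, with 36.2 in WT. The score change was -0.19 ± 0.21 (limma adjusted p = 0.654). At chr11:85464000-85464236 and chr7:92384420-92384725 it was -0.21 ± 0.12 and -0.48 ± 0.14 (limma adjusted p = 0.382 and 0.127). Each of the 6 lists had these 3 sites above its 99.8th percentile. Strong sites were called elsewhere, since the 4414 strongest common sites by mean percentile held 17 of the 24 higher and 9 of the 14 lower calls.

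Nearly all the higher calls were sites of very large pileup, where the G365R lists neared their own upper end. At the 24 higher sites the summit pileup had medians of 1224.5, 1999.5, 1503.5 and 1628 fragments in the truncating lists and of 374 and 400.0 in the G365R lists, where the highest of all common sites were 405 and 450. The pileups of the first G365R list had been scaled. Over all common sites the median pileup overlapped between the sides, at 141, 223, 147 and 210.0 against 151 and 148. A pileup of 300 or more in both G365R lists was found at 826 common sites (4.68%), which included 20 of the 24 higher and 1 of the 14 lower sites. Of these 826 sites 92.7% had a change above 0, with a median of 0.50. When common sites were divided into deciles by mean pileup rank over the 6 lists, the median change went from -0.26 in the lowest to 0.40 in the highest decile, and the highest held 21 of the 24 higher sites. Its median pileup was 640 fragments in truncating and 301 in G365R lists. Without this decile limma called 0 of 15894 sites (2525 at an unadjusted p under 0.05). That comparison was chosen after seeing the data. The 16 called sites still tested kept their direction, and the 6 named lower sites changed by about as much as before (-1.53 to -2.46) with limma adjusted p of 0.0529 to 0.0854. The part of the pileup limit in the calls was not tested further.

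**Figure D5:**
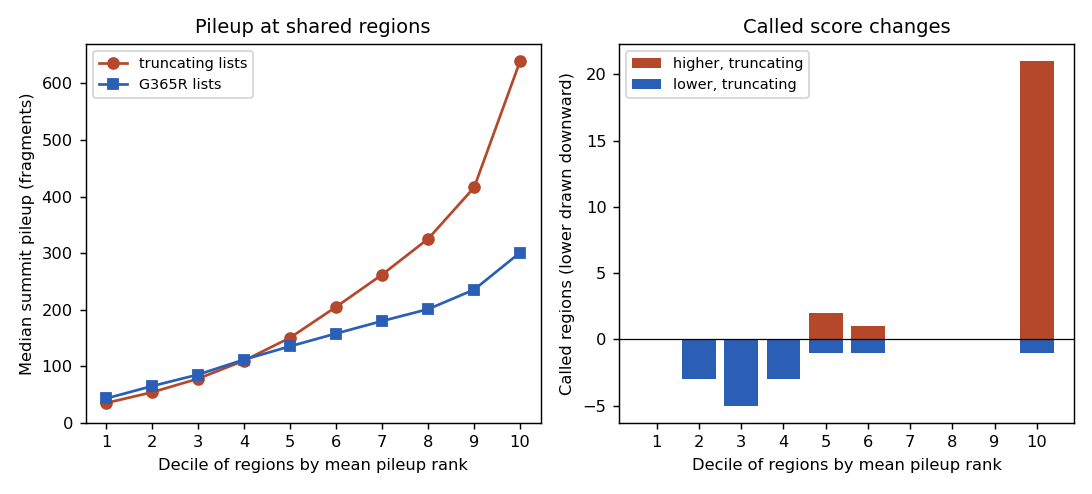
Left, median summit pileup in fragments (y axis) of the truncating (red) and G365R lists (blue) in deciles of the common sites ordered by mean pileup rank (x axis). Right, number of sites called higher (upward) or lower (downward) on the truncating side in each decile, of which the highest decile holds 21 of 24 higher and 1 of 14 lower sites.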

How the data were processed

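Chromatin immunoprecipitation with anti-TY1 or anti-HA was sequenced in Jurkat clones, and 1 narrowPeak list per library was used. Per the submitters' processing notes the authors used CASAVA 1.8, Bowtie2 2.2.9 and MACS2 2.2.7.1 with build hg19. The caller's settings and its control libraries are not stated there. The authors' deposited values per peak were fold enrichment (a ratio), −log10 p, −log10 q and an integer score, which was not used further. Peaks outside chromosomes 1 to 22 and X (700 to 1602 per TY1 list) were left out, and no list of artefact-prone regions was applied.

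Lists were cut to 40112 peaks by −log10 p (HA lists to 30563). Summit windows of 100 bp each side were merged into regions, and coordinates count from 1. Pileup and background were solved from fold and −log10 p under a Poisson model with a pseudocount of 1. Solved pileups were whole within 0.05 for at least 99.99% of peaks in the truncating lists and the second G365R list, but for 8.08% in the first G365R list and 6.84% in the WT TY1 list, whose pileups had thus been scaled. The commonest background was 2.83 to 3.72 fragments in the truncating and 3.55 and 4.54 in the G365R lists, the nearest measure of depth at hand. Library depth itself is unknown, so no counting intervals are given.

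Scores were compared with limma 3.58.1 in R 4.3.3 (trend, 3 genotype groups, 3 residual degrees of freedom), contrasting the mean of R232fs and Y287X with G365R. List values were compared by exact permutation. The limma fit was tested on simulated scores, and the permutation on a short set of values with a known answer. Python 3.11.15, numpy 2.4.6, pandas 2.3.3, scipy 1.17.1 and matplotlib 3.10.9 were used. Named regions are the 6 highest and 6 lowest called changes whose groups do not overlap, the 6 of each side with the highest median fold, and the 3 with the highest mean percentile. Members, measures and rules were chosen with earlier results of these data known. The planned gene lists, T-cell markers and nearest genes need hg19 annotation and were not analysed here; the supplied gene table has build GRCh38. Each peak had a single summit, so summits per peak were not compared. Alternatives were other ranks, cuts, list lengths, windows, fits and left-out lists.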

Additional observations from a re-analysis of the deposited data

How the results depend on the processing

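The number of called sites (38, 24 higher and 14 lower) moved with most settings. Ranks of −log10 p gave 2041 (1007 and 1034) and ranks of summit pileup 1932 (865 and 1067). Lists cut by fold gave 14 (11 and 3), full lists 13 (10 and 3) and the first 20000 peaks 75 (47 and 28). Windows of 250 bp gave 9 lower sites. All 14 lists with a random clone effect gave 455 (246 and 209), and sites outside the highest decile of pileup 0 (0 and 0). Leaving out 1 list gave 5 to 2072 sites, 5 to 836 higher and 0 to 1236 lower. With the replicate block limma called 322 (140 and 182), but the deviations of same-numbered lists correlated with r = 0.0964, -0.037 and 0.0102, and the numbers name different clones, so they share a number only. Scores at the 38 sites did not overlap between the sides. Leaving out a list or adding the replicate block could therefore not change their direction. In every other setting that tested all of them the direction was kept, except with ranks of summit pileup, where 28 kept it. With those ranks chr13:113527388-113527624 changed by -0.19 and chr6:27870609-27871099 by 0.17, opposite to the fold ranks. Of 188 values of named sites under other settings 134 stayed on their side of the threshold and 52 lost their call. The cause was not tested.

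Truncating-only regions numbered 17 among the first 20000 peaks and 530 to 1141 with 1 list left out. G365R-only regions numbered 300 among the first 20000 peaks, 3904 in lists cut by fold and 2238 to 4671 with 1 list left out. Fewer lists make both conditions easier to meet. No list measure and no similarity index passed 0.05 in any setting, and the design allows none to. Similarity differed by 0.0249 to 0.125 with 1 list left out. Peak lists hold no value where no peak was called, so a site absent from a list may lie just under the caller's threshold.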
